A study of Rattus norvegicus with 56 samples.

Results

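Protocadherins, the largest family of cadherin-type adhesion molecules in the brain, were described in the hippocampus and parietal cortex of rats given either iTBS (intermittent theta burst stimulation) or a sham treatment. Members were the array probes whose transcript accession, without its version number, mapped through the RefSeq gene table to a rat symbol beginning with Pcdh, and the probe with the highest mean signal stood for each gene. This gave 35 genes on 47 probes, out of 16581 named genes and 45598 probes in all. Of the members, 25 belonged to the clusters on chromosome 18 (1 Pcdha, 11 Pcdhb and 13 Pcdhg genes) and 10 were solitary genes outside the clusters. The RefSeq table listed 52 protocadherin symbols, and 17 of them, Pcdh1, Pcdh10 and Pcdhgc3 included, had no probe here and were not analysed.

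Protocadherins are single-pass membrane proteins whose extracellular cadherin repeats bind the same protein on a neighbouring cell. In the clusters, each variable exon has its own promoter, a neuron uses a small and partly random choice of these promoters, and the resulting combination of cell surface proteins lets a neuron tell its own branches from those of its neighbours. Transcripts of the Pcdha genes, and likewise those of the Pcdhg genes, end in shared constant exons, whereas Pcdhb genes are single exons. The solitary genes are expressed in regional and laminar patterns. They include the delta-1 group (Pcdh7, Pcdh9 and Pcdh11x here) and the delta-2 group (Pcdh8, Pcdh17, Pcdh18 and Pcdh19), which differ in their number of cadherin repeats and in their cytoplasmic tails.

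iTBS delivers short, repeated bursts of magnetic pulses to the brain from outside the head. Here male Long-Evans rats received it in vivo through a coil above the skull, and sham animals had the coil away from the head. Tissue was taken 48 h later. The age was 6 to 7 months in young rats (Y) and 26 to 27 months in aged ones, which performance in a water maze split into unimpaired (AU) and impaired (AI) animals. All groups, sham included, had received isoflurane, dexmedetomidine and Antisedan to reverse the sedation. Sham treatment went to 4 young (Y_Sham), 4 AU (AU_Sham) and 4 AI (AI_Sham) rats and iTBS to 4 young (Y_iTBS), 5 AU (AU_iTBS) and 3 AI rats (AI_iTBS), and each of these 24 animals gave 1 hippocampal and 1 cortical sample. The labels' design text calls the samples mouse, whereas organism, strain and array were rat. Values below are log2 signals after each array was brought to the same mean and spread, so that 0 is the mean of an array's probes. A difference of 1 is a change of 1 log2 unit on that scale, and a probe's level cannot be set against that of another probe.

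Of the 56 arrays, 55 could be placed in a group, and 64.7% ± 2.10 (SD) of an array's probes were well above background. Most region markers went with the labels in sham animals. Of the hippocampal markers, 5 of 7 were higher in the hippocampus, Tyro3 was lower and Prox1 was nearly equal in both regions. Of the cortical markers, 6 of 7 were higher in the cortex, Rasgrf2 being lower. The cortex repeat of AI_iTBS 2 did not resemble its own first array (r = -0.015 over 1000 variable probes, against 0.451 with AI_Sham 2) and was left out. The first array was kept, and which of these arrays carries the right label was not tested. The other 6 repeats correlated best with their own first array, with r of 0.318 to 0.619. The margin was narrow for the hippocampus of AI_iTBS 2 (0.342, against 0.302 with AI_Sham 4).

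Of the 35 members, 21 were well above background in both regions of all 24 animals. Genes were tested where at least 3 animals were above background, which left 32 members in the hippocampus and 33 in the cortex and in the comparison of regions. Pcdh12, a gene of vascular endothelium, was above background in 0 of 24 hippocampal and 1 of 24 cortical samples, and Pcdhga10 in 2 and 1, so both were never tested. Pcdhga11 was above background in 2 hippocampal and 4 cortical samples. Near the detection limit were also Pcdhga9 (3 hippocampal and 7 cortical samples), Pcdhgb8 (4 and 9), Pcdhga3 (11 and 9), Pcdhb2 (12 and 10), Pcdhga5 (12 and 14) and Pcdhga1 (14 and 8). Their values are less certain than those of the other members. Which transcripts of the Pcdhg cluster each probe reads was not tested, and a probe in the shared constant exons would read many of them together.

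Of the 35 members, 33 had a promoter in the RefSeq promoter table of the rat assembly GRCr8 (250 bases before to 50 bases after the start of the gene), all but Pcdh19 and Pcdhgb7. Pcdhga4 had 2, which makes 34 promoters. They are shown because each clustered gene carries its own promoter and the Pcdhb promoters proved alike. The 10-base word GGTGGCGCTG was the longest held by all 11 Pcdhb promoters, and GGTGGCGCTGCAG, which contains it, the longest held by at least 8 of them. Both were chosen from these sequences and sought on both strands. The shorter word stood in 74 of all 33465 promoters (0.221%) and in no other member's. The longer, 13-base word stood in 8 of 11 Pcdhb promoters (72.7%), in 0 of 13 promoters of 12 Pcdhg genes, in the Pcdha4 promoter not at all, and in 0 of 9 promoters of solitary members. Among all 33465 promoters it stood in 13 (0.0388%), and the other 5 were those of Pcdhb7, Pcdhb14, Pcdhb16, Pcdhb19 and Dnajb2. The stretches of 45 bases around the word, all on the plus strand of chromosome 18 and from Pcdhb2 to Pcdhb21 in their order along the chromosome, read as follows, with the word in capitals.
Pcdhb2, chr18:29279921-29279965: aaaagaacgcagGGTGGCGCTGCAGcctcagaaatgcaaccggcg
Pcdhb4, chr18:29292209-29292253: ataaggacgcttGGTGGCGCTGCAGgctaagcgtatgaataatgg
Pcdhb5, chr18:29302402-29302446: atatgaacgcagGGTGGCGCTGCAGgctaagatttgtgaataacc
Pcdhb6, chr18:29320150-29320194: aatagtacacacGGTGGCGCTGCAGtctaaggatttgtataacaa
Pcdhb8, chr18:29339256-29339300: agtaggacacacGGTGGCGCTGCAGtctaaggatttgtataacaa
Pcdhb9, chr18:29379246-29379290: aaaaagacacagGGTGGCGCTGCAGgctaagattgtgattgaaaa
Pcdhb12, chr18:29413646-29413690: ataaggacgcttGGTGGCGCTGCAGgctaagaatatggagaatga
Pcdhb21, chr18:29492147-29492191: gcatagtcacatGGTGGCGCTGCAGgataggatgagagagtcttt

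The word began 52 bases before the annotated start in Pcdhb5 and Pcdhb9, 60 in Pcdhb21, 69 in Pcdhb4, 71 in Pcdhb2 and 98 in Pcdhb12, and 208 and 229 in Pcdhb8 and Pcdhb6. Pcdhb6 and Pcdhb8 shared an unbroken run of 49 bases, Pcdhb4 and Pcdhb12 one of 32 and Pcdhb5 and Pcdhb9 one of 25. The bases before and after the word differed more between other pairs. The GC content of the clustered promoters had a median of 42.3% (35.0 to 50.3%), against 53.0% for the solitary members and 51.7% for all promoters. For comparison, the promoters of 3 solitary genes that differed between regions in sham animals (adjusted p under 0.05 by limma, as for 35.9% of all probes) are given whole. They are Pcdh11x at chrX:90278985-90279284 on the plus strand, Pcdh7 at chr14:57113473-57113772 on the minus strand and Pcdh20 at chr15:70840249-70840548 on the minus strand. None of the 3 holds the word.
Pcdh11x: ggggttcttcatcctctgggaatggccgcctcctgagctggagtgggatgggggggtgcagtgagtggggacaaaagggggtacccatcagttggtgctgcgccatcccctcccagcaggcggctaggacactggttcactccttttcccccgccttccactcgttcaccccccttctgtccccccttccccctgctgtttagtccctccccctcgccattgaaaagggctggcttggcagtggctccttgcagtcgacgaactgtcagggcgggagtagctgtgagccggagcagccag
Pcdh7: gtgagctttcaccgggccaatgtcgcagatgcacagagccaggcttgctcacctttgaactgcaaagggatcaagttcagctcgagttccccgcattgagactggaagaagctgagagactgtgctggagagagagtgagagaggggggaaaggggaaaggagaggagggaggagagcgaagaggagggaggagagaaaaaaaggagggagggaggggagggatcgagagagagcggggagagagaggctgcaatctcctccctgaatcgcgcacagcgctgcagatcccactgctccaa
Pcdh20: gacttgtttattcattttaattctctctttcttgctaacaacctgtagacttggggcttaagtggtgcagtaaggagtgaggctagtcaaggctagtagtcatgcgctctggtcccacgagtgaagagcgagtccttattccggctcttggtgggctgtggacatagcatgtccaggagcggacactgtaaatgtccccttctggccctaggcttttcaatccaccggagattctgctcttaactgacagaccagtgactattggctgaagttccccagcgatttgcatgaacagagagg

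The first comparison asked how far protocadherin levels differ between hippocampus and cortex of the same sham animals. Solitary genes carried most of the difference. Pcdh11x and Pcdh7 were lower in the hippocampus and Pcdh19, Pcdh20 and Pcdh17 higher, each in 12 of 12 animals, and only small differences were called in the clusters. In all, 12 of 33 tested members passed an adjusted p of 0.05 (limma, Benjamini-Hochberg over all probes), 6 higher and 6 lower in the hippocampus, against 35.9% of all 33770 probes, so that the share among members was close to that of the array as a whole. By group, 7 of 9 solitary, 4 of 11 Pcdhb, 1 of 12 Pcdhg and 0 of 1 Pcdha genes were called. The tissue was bulk, so that fewer cells of a type and less RNA per cell cannot be told apart.

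Pcdh11x, an X-linked delta-1 protocadherin, had the largest difference among the members tested on this scale. Its hippocampal level in the 12 sham animals had a lowest, median and highest value of -4.30, -2.86 and -2.06, and its cortical level ran from -0.41 through 0.08 to 0.48. The regions did not overlap, and the hippocampus was lower by 2.98 log2 units (SE 0.149, adjusted p = 1.57e-12 by limma). In the hippocampus only 3 of the 12 sham samples were above background, so this size rests on dim spots. With a normexp background correction the difference was -1.17, beside -1.22 for Pcdh7 and 1.23 for Pcdh19. The gene's other probe gave -2.10.

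Pcdh7, a delta-1 protocadherin that binds a protein phosphatase through its cytoplasmic tail, followed the same direction. Hippocampal levels were 3.14, 3.95 and 4.41 (lowest, median and highest of 12 sham animals), below all cortical levels of 4.76, 5.22 and 5.49. The difference was -1.19 (SE 0.0871, adjusted p = 6.84e-10), with -1.28 on the gene's other probe. Pcdh9, the remaining delta-1 member, was lower in the hippocampus by 0.51 (SE 0.104, adjusted p = 0.000583, 11 of 12 animals). Its levels were 5.70, 5.96 and 6.17 in the hippocampus against 5.50, 6.53 and 6.75 in the cortex, and the 1 overlapping cortical value, 5.50, was that of AU_Sham 1. With the later scan dates alone the difference was -0.33 and not called (adjusted p = 0.212). Its other probes gave -0.64 and -0.58, so all 3 delta-1 genes were lower in the hippocampus on each of their tested probes.

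**Figure D1:**
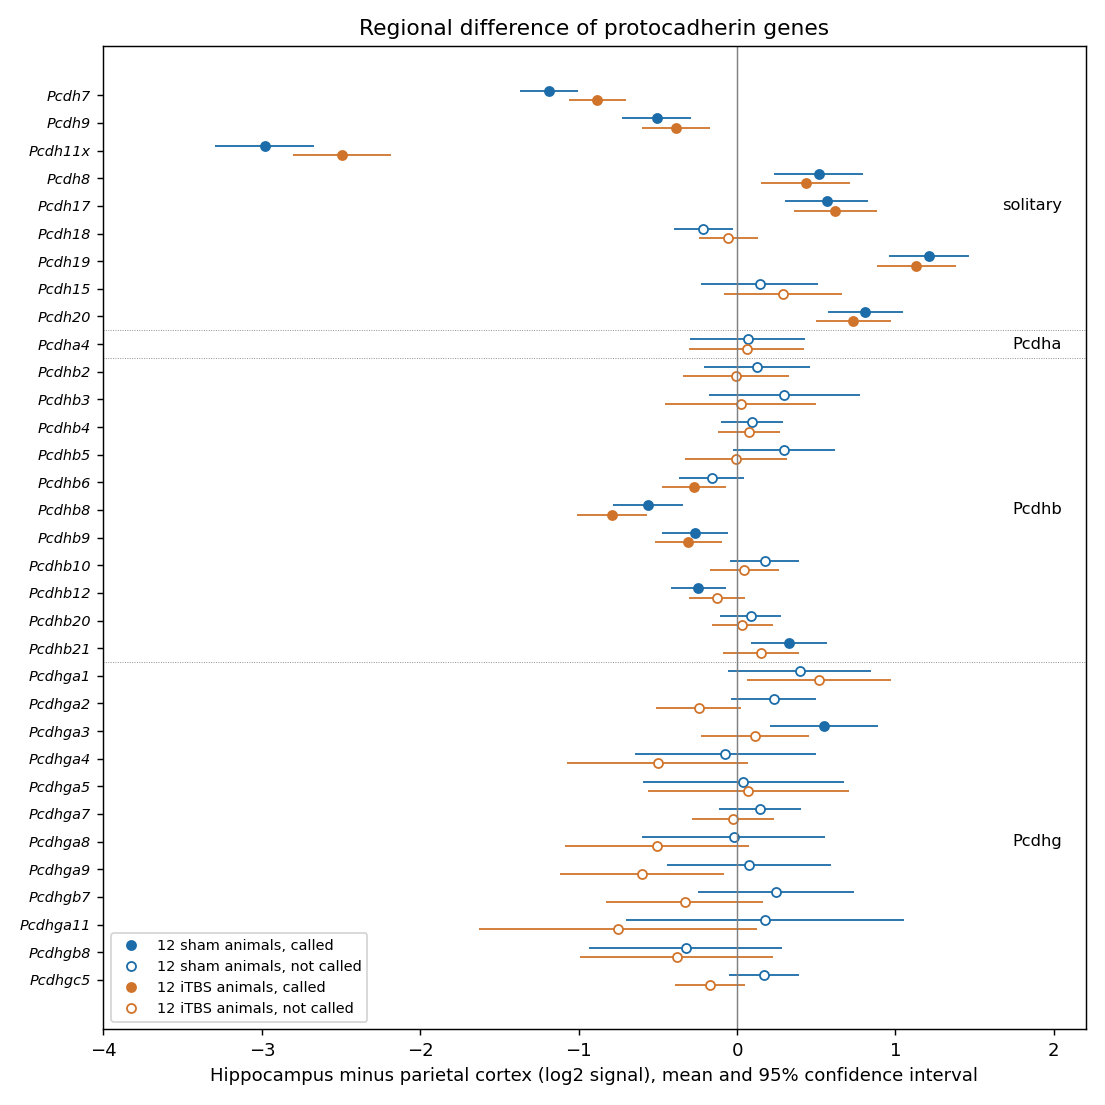
Difference between hippocampus and parietal cortex (log2 units, horizontal axis) for each of the 33 tested protocadherins (vertical axis, by family), separately in 12 sham and 12 iTBS animals. Points are means of within-animal differences, bars are 95% confidence intervals and filled points passed an adjusted p of 0.05. Pcdh11x lies far to the left at -2.98 in sham animals, Pcdh19 farthest to the right at 1.21, and the clustered genes gather near 0.

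Among delta-2 genes, Pcdh19, in which mutations cause an epilepsy that mainly affects girls, was higher in the hippocampus. Its levels were 6.18, 6.66 and 7.07 there and 5.00, 5.44 and 6.06 in the cortex, with no overlap, and the difference was 1.21 (SE 0.120, adjusted p = 6.17e-08). Both other probes of the gene gave the same direction (1.20 and 1.42). Pcdh17, which takes part in the assembly of presynaptic vesicles, was higher by 0.57 in 12 of 12 animals (adjusted p = 0.00132), although the ranges of 5.33 to 5.99 and 4.56 to 5.58 overlapped.

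Pcdh8, a protein induced by neuronal activity that draws N-cadherin away from the synapse, was higher in the hippocampus by 0.52 in 10 of 12 animals (adjusted p = 0.00515). The hippocampal levels ran from 3.06 to 4.48 and the cortical ones from 3.21 to 4.26, so the distributions overlapped widely. In the animals of the later scan dates alone, the difference was 0.16 (adjusted p = 0.717, the highest over all alternatives). Pcdh18, the fourth delta-2 gene, had a difference of -0.21 that did not pass (adjusted p = 0.0717). All 3 called delta-2 genes were thus higher in the hippocampus and all 3 delta-1 genes lower.

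Of the other solitary genes, Pcdh20 was higher in the hippocampus. Its levels were 4.31, 4.79 and 5.11 there and 3.24, 4.03 and 4.23 in the cortex, with no overlap between regions, and the difference was 0.81 (SE 0.113, adjusted p = 7.66e-06). Pcdh15, a component of the tip links of hair cells, gave 0.14 (adjusted p = 0.568), and its 2 other tested probes gave 0.06 and -0.43, so no direction can be given for it.

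In the Pcdhb cluster, Pcdhb8 had the largest called difference. Its levels were -0.42, -0.12 and 0.26 in the hippocampus and -0.28, 0.40 and 1.33 in the cortex, and although the ranges overlapped the hippocampus was lower in 12 of 12 animals (-0.56, SE 0.106, adjusted p = 0.000242). Pcdhb9 (-0.27, adjusted p = 0.0443) and Pcdhb12 (-0.25, adjusted p = 0.0265) were also lower, and Pcdhb21 was higher (0.33, adjusted p = 0.0303). With slide as a block the adjusted p of Pcdhb8 was 0.0813, and Pcdhb9 and Pcdhb12 were no longer called. That fit used single arrays, with technical repeats as separate values. The other 7 Pcdhb genes differed by -0.16 to 0.30 and did not pass.

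In the Pcdhg cluster only Pcdhga3 was called (0.55, adjusted p = 0.0118), with the hippocampus higher in 7 of 12 animals. It was above background in 5 of 12 hippocampal and 3 of 12 cortical samples and was not called with slide as a block, so this value is among the least certain. The regional difference of Pcdhga3 was larger in young than in aged sham animals (aged minus young -1.32, not called). The Y_Sham cortices behind it are also the baseline of its young iTBS and age comparisons below. Pcdhga7 and Pcdhgc5, the latter one of the C-type isoforms that do not follow the random promoter choice, differed by 0.14 and 0.17 and did not pass. The other probes of Pcdhga7 had sham means of 5.63 and -3.18 in the hippocampus and 5.47 and -3.30 in the cortex. The dimmer one was above background in only 7 hippocampal and 6 cortical samples. The 1 Pcdha gene, Pcdha4, had levels of -0.33 to 0.77 in the hippocampus and -0.81 to 0.61 in the cortex, and its difference of 0.07 had a 95% interval of -0.30 to 0.43.

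The same comparison in the 12 iTBS animals called 10 of 33 members, 4 higher and 6 lower, against 33.7% of all probes. Pcdh11x (-2.50), Pcdh7 (-0.88), Pcdhb8 (-0.79), Pcdh9 (-0.38) and Pcdhb9 (-0.31) were lower in the hippocampus and Pcdh19 (1.13), Pcdh20 (0.73), Pcdh17 (0.62) and Pcdh8 (0.43) higher, in the directions seen in sham animals. Pcdhb6 was called here (-0.27, adjusted p = 0.0374) and not in sham animals, while Pcdhb12, Pcdhb21 and Pcdhga3 were not. The alternatives did not follow Pcdhb6 by name. With slide as a block, Pcdh17 (adjusted p = 0.107) and Pcdhb9 were no longer called in the iTBS animals, and with the later scan dates alone Pcdh8 (0.12, adjusted p = 0.703), Pcdh9 (-0.22, adjusted p = 0.267) and Pcdhb9 were not.

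**Figure D2:**
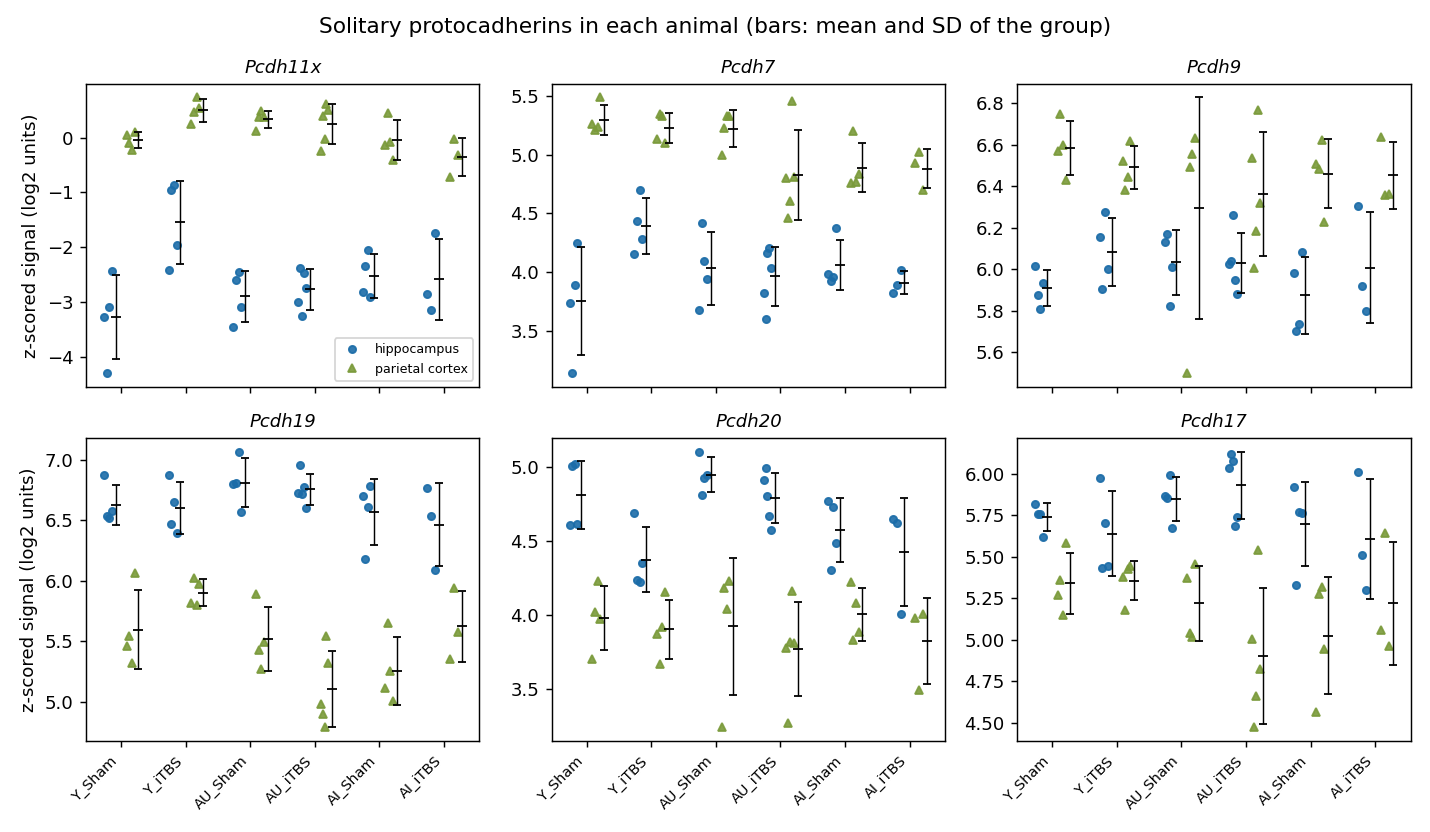
Normalised log2 signal (vertical axis) of 6 solitary protocadherins in each animal, by group (horizontal axis) and region, with 1 point per animal and a bar at the mean ± SD of the group. The group means of Pcdh11x, Pcdh7 and Pcdh9 are higher in the cortex and those of Pcdh19, Pcdh20 and Pcdh17 higher in the hippocampus in all 6 groups.

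Other pathway genes and markers of cell types are given from lists, as counts of genes called higher and lower in the hippocampus of sham animals, where 35.9% of all probes were called. Of 13 tested regulators of the clusters, such as Ctcf, 0 were higher and 1 was lower (Hnrnpu, -0.21). Of 22 signalling partners 7 were higher, among them the receptor tyrosine kinase Ret (1.32) and the kinase Ptk2b (1.06), and 3 were lower, the wave complex subunit Cyfip2 (-0.62), Marcks and Ptk2. Of 28 other cadherins 9 were higher, led by Cdh9 (2.06), and 4 lower, Cdh7 (-2.10) and Cdh6 (-1.79) among them. Markers of interneurons were lower in 7 of 8 cases, those of neurons in general higher in 2 and lower in 4 of 8, those of oligodendrocytes higher in 7 of 8 and those of the choroid plexus higher in 8 of 10. The mean level of the interneuron list was 6.47 to 7.02 in sham hippocampi and 7.16 to 7.83 in sham cortices, and that of the oligodendrocyte list 7.25 to 7.88 and 6.53 to 7.79. Astrocyte markers were higher in 3 of 8, those of oligodendrocyte precursors in 4 of 6 and those of microglia in 3 of 8, whereas endothelial markers were lower in 4 of 8 and mural or meningeal ones higher in 1 and lower in 3 of 8. Each tested gene of these lists was above background in at least 1 sample of both regions, and their part in the regional differences of the protocadherins was not tested.

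The next comparisons asked whether iTBS changed protocadherin levels within an age group. No member passed an adjusted p of 0.05 (limma) in any of the 8 comparisons of iTBS with sham, in young, aged, AU and AI animals and both regions. The share of all probes called was 0% in 7 of these comparisons and 0.00613% in the cortex of AI animals. At an unadjusted p under 0.05 there were 3 of 32 members in the young hippocampus (4.51% of all probes), 0 in the aged (2.48%), 1 in the AU (2.29%) and 1 in the AI hippocampus (1.95%). In the cortex there were 3 of 33 in young (2.70%), 0 in aged (2.92%), 4 in AU (8.38%) and 2 in AI animals (4.09%). The members named below had the smallest p-values of their comparison and none is a call.

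In the young hippocampus the smallest p belonged to Pcdh11x. Its levels in Y_Sham 1 to 4 were -3.27, -4.30, -3.10 and -2.43, and in Y_iTBS 1 to 4 they were -2.41, -0.95, -0.86 and -1.97. All 4 stimulated animals lay above all sham animals, although Y_iTBS 1 and Y_Sham 4 nearly met. The difference was 1.73 (SE 0.397, adjusted p = 0.931), 1 of 4 sham and 4 of 4 stimulated samples were above background, and the other probe of the gene gave 0.50. With normexp correction the difference was 0.40, and over the alternatives other than leaving out an animal it stayed above 0.

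Pcdh7, likewise a delta-1 gene, had hippocampal levels of 3.74, 3.14, 3.89 and 4.24 in Y_Sham and 4.15, 4.44, 4.70 and 4.28 in Y_iTBS animals. The groups overlapped through Y_Sham 4 alone, and the difference was 0.64 (SE 0.200, adjusted p = 0.931), with 0.35 on the other probe. Pcdh20 had 4.61, 5.01, 5.02 and 4.62 in Y_Sham and 4.69, 4.23, 4.22 and 4.35 in Y_iTBS animals, with a difference of -0.44 (SE 0.157, adjusted p = 0.931) and Y_iTBS 1 within the sham range. In the regional comparison above, Pcdh11x and Pcdh7 were among the members with a higher cortical level and Pcdh20 among those with a higher hippocampal level. Beside these values, 6 of 7 cortical marker genes had a difference above 0 in the young hippocampus (median 0.17, with Tbr1 at 0.45 and Fezf2 at 0.42) and 2 of 7 hippocampal markers did (median -0.12), none with an unadjusted p under 0.05. The mean of the cortical list ran from 1.25 to 1.49 in Y_Sham and from 1.42 to 1.71 in Y_iTBS hippocampi. The part of these markers in the values of Pcdh11x, Pcdh7 and Pcdh20 was not tested.

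In the young cortex, Pcdhga3 had levels of -3.99, -3.21, -3.74 and -4.57 in Y_Sham and -2.73, -2.36, -2.51 and -2.76 in Y_iTBS animals. The groups did not overlap, but 0 of 4 sham and 1 of 4 stimulated samples were above background (fitted difference 1.29, adjusted p near 1 by limma). With the sham samples set no lower than the dimmest signal counted as above background on their arrays, the stimulated mean was 1.36-fold higher. Most stimulated samples were not above background either, so no lower bound can be given. Cortical Pcdh11x ran from 0.05, -0.10, -0.22 and 0.10 in Y_Sham to 0.24, 0.47, 0.73 and 0.54 in Y_iTBS animals, again without overlap, with a difference of 0.54 (SE 0.201). Pcdh18, a delta-2 protocadherin that binds the adaptor Dab1, had 2.53, 2.52, 2.46 and 3.15 in Y_Sham and 2.27, 2.30, 2.29 and 2.39 in Y_iTBS cortices, with a difference of -0.35 (SE 0.167) that was -0.19 without Y_Sham 4. Both differences were far from passing over all probes, where the smallest adjusted p was 1.00.

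**Figure D3:**
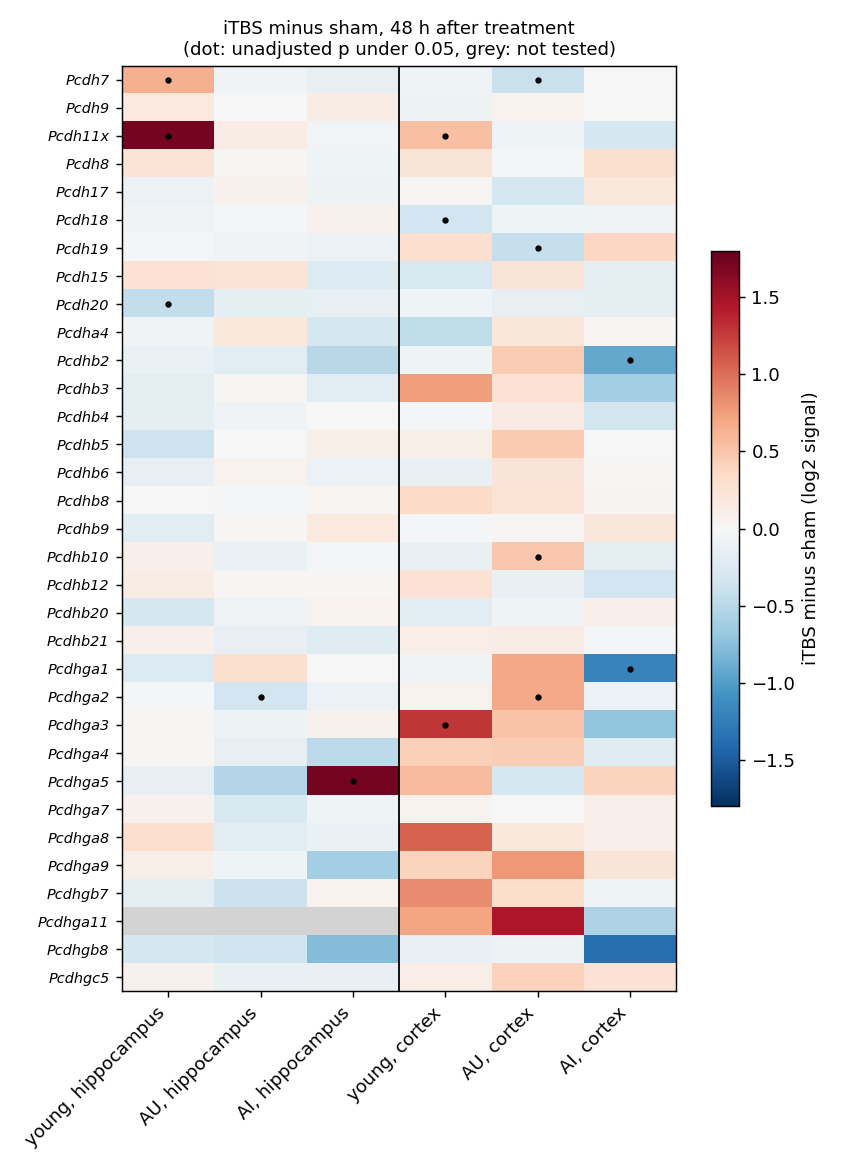
Heat map of the iTBS minus sham difference (log2 units, colour) for the tested protocadherins (rows) in young, AU and AI animals of each region (columns). Dots mark an unadjusted p under 0.05, grey marks the untested Pcdhga11 in the hippocampus, and no cell passed an adjusted p of 0.05. Pcdh11x in the young hippocampus (1.73) and Pcdhga5 in the AI hippocampus (1.73) are the strongest positive hippocampal cells.

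Of the aged animals, the members with an unadjusted p under 0.05 are given here. The AU hippocampus had Pcdhga2 at -0.35 (SE 0.161), with AU_iTBS levels of -1.05, -1.26, -1.02, -0.75 and -0.64 against -0.73, -0.85, -0.44 and -0.37 in AU_Sham. The AI hippocampus had Pcdhga5 at 1.73 (SE 0.682), from -3.81, -2.84, -2.42 and -3.09 in AI_Sham to -1.74, -2.90 and 0.70 in AI_iTBS. Without AI_iTBS 3, whose level of 0.70 stood apart, this difference was 0.72.

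In the AU cortex, Pcdh7 had a difference of -0.39, Pcdh19 of -0.42, Pcdhb10 of 0.48 and Pcdhga2 of 0.69, with a smallest adjusted p of 0.578. The value of Pcdhga2 was 0.31 without AU_iTBS 5, which had a level of 1.49 against -0.65 to -0.15 in the rest of its group. Beside these values, mural and meningeal markers had a median of -0.65 in the AU cortex (3 of 8 with an unadjusted p under 0.05), astrocyte markers -0.38 (2 of 8), interneuron markers -0.33 (2 of 8) and cortical markers 0.24 (0 of 7), and none was called. The mean of the mural and meningeal list ran from 2.69 to 3.75 in AU_Sham and from 0.963 to 3.35 in AU_iTBS cortices, and that of the astrocyte list from 6.84 to 7.07 and from 6.48 to 6.85. Their part in the values of the protocadherins was not tested.

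In the AI cortex, Pcdhga1 was at -2.33, -2.40, -2.21 and -2.70 in AI_Sham and -2.98, -4.42 and -3.45 in AI_iTBS. It was above background in 3 AI_Sham samples and in no AI_iTBS sample. With AI_iTBS set no lower than the dimmest signal above background on its arrays, AI_Sham was 1.48-fold higher. The fitted difference was -1.21, and -0.80 without AI_iTBS 2. Pcdhb2, with levels of -2.63 to -1.05 in AI_Sham and -3.35 to -2.58 in AI_iTBS, was 1.81-fold higher in AI_Sham on the same measure. Its fitted difference was -0.91, with a range of -1.14 to -0.61 when 1 animal was left out, and the groups overlapped. In the AU cortex both genes went the other way, and neither was called. Pcdhb2 was above background in 5 and Pcdhga1 in 4 AU_iTBS samples, and neither in an AU_Sham sample. On the same measure they were 1.37-fold and 1.12-fold higher in AU_iTBS.

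Whether iTBS acted differently in aged and young animals was tested directly, as the aged minus the young effect. No member passed in the hippocampus or the cortex (0% of probes called in both). Pcdh11x had the smallest p in the hippocampus (-1.69, SE 0.489, adjusted p = 0.801), followed by Pcdh7 (-0.75, SE 0.246), and these were the 2 of 32 members with an unadjusted p under 0.05 (4.29% of all probes). In the cortex they were Pcdhga3 (-1.38) and Pcdh11x (-0.74), 2 of 33 members (3.21%). The iTBS effect was also compared between regions of the same animals, with 0 members passing in young and in aged rats (0% of probes called in each). Pcdh7 (0.71), Pcdh11x (1.19) and Pcdhga3 (-1.26) had the smallest p-values in young rats, 3 of 33 members below 0.05 unadjusted (2.65% of all probes), and Pcdhgc5 (-0.47) and Pcdhga2 (-0.52) in aged rats, 2 of 33 (2.29%).

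Age was compared in sham animals alone, the mean of AU and AI against young. No member passed in either region, where 0.00308% of all probes were called in the hippocampus and 0.104% in the cortex (0.0767% higher and 0.0276% lower in aged animals). At an unadjusted p under 0.05 there were 2 of 32 members in the hippocampus (8.18% of all probes) and 8 of 33 in the cortex (9.46%). In the cortex 7 of those 8 were clustered genes with a difference above 0, Pcdhga3, Pcdhb12, Pcdhb4, Pcdhb3, Pcdhb2, Pcdhb8 and Pcdhga5, and the 1 solitary gene, Pcdh18, was below 0.

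Cortical Pcdhga3 was at -3.99, -3.21, -3.74 and -4.57 in Y_Sham, at -2.65, -2.02, -3.48 and -2.66 in AU_Sham and at -2.39, -2.46, -2.30 and -3.26 in AI_Sham. The 8 aged animals lay above the young mean, although AU_Sham 3 and AI_Sham 4 were within the young range. No young sample and only 3 of the 8 aged samples were above background. With the young samples set no lower than the dimmest signal above background on their arrays, the aged mean was 1.30-fold higher. This is not a lower bound, since most aged samples were not above background either. The fitted difference was 1.23 (SE 0.304, adjusted p = 0.189 by limma). Over the alternatives without a left-out animal the adjusted p ranged from 0.0519 to 0.422.

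Cortical Pcdhb12 was at 0.71, 1.38, 0.88 and 0.38 in Y_Sham, 1.20, 1.64, 1.52 and 1.63 in AU_Sham and 1.57, 1.38, 1.60 and 1.37 in AI_Sham. Only Y_Sham 2 reached the aged range, and the difference was 0.65 (SE 0.182, adjusted p = 0.275). Cortical Pcdhb4 was at 1.22, 1.53, 1.53 and 1.32 in Y_Sham, 1.52, 1.69, 1.42 and 1.79 in AU_Sham and 2.16, 1.66, 2.23 and 2.36 in AI_Sham. Its difference was 0.46 (SE 0.133, adjusted p = 0.297), the groups overlapped, and the 3 highest values were those of AI animals. The same 2 genes had the smallest p-values in the hippocampus, Pcdhb12 at 0.33 (SE 0.132) and Pcdhb4 at 0.35 (SE 0.148, adjusted p = 0.603), both above the young mean in 8 of 8 aged animals.

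Cortical Pcdh18 was at 2.09, 2.15, 2.01 and 2.38 in AU_Sham and 2.24, 2.36, 2.18 and 2.39 in AI_Sham, below all 4 young values of 2.53, 2.52, 2.46 and 3.15. The difference was -0.44 (SE 0.144, adjusted p = 0.365), and -0.28 without Y_Sham 4. Pcdhb3 had a difference of 1.60 (SE 0.552), but this rested on Y_Sham 4 at -3.45 where the other young sham animals had 0.43, 1.02 and 1.08, and without that animal it was 0.53.

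**Figure D4:**
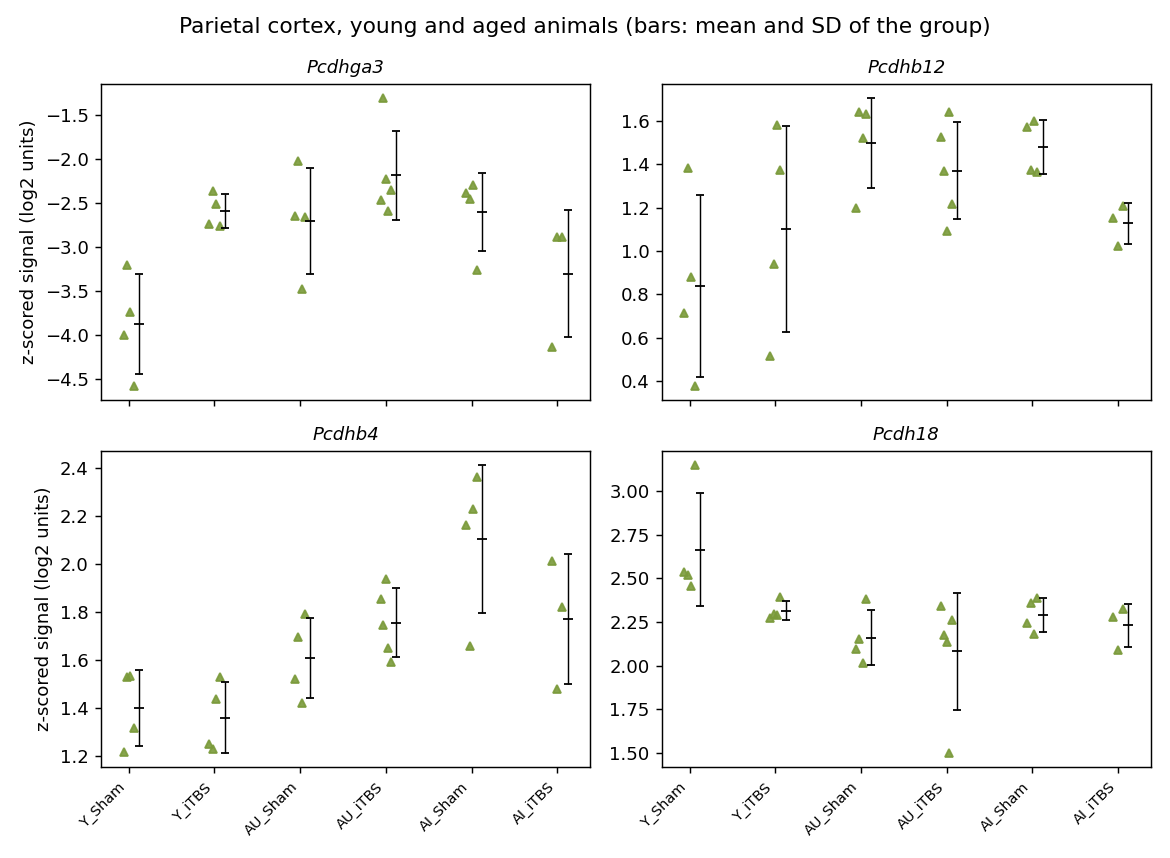
Normalised log2 signal (vertical axis) of Pcdhga3, Pcdhb12, Pcdhb4 and Pcdh18 in the parietal cortex, with 1 point per animal and a bar at the mean ± SD of each of the 6 groups (horizontal axis). The sham animals of Pcdhga3, Pcdhb12 and Pcdhb4 have a higher mean in AU and AI than in young animals, and Pcdh18 a lower one.

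As a family, 10 of 11 Pcdhb genes had a cortical age difference above 0, with a median of 0.42. All probes had a median of -0.01 and so lay about evenly on both sides of 0. The Pcdhb median ranged from 0.21 to 0.57 over the alternatives and from 0.30 to 0.47 when 1 animal was left out. The Pcdhg genes had a median of 0.32 with 9 of 12 above 0, and here the median ranged from -0.02 to 0.48, the lowest being that of a filter on mean signal that kept 2 of them. Solitary genes had a median of -0.21, with 1 of 9 above 0. The genes of a family were read on the same arrays and against the same 4 Y_Sham cortices, so these counts are not of independent values. Whether the Pcdhb probes also read transcripts of related Pcdhb genes was not tested. In the hippocampus the medians were -0.03, 0.05 and 0.07 for Pcdhb, Pcdhg and solitary genes. Whether the regional difference changed with age was tested in sham animals, and 0 members passed (0.00296% of probes called), with Pcdhga3 (-1.32), Pcdhb3 (-1.49, and -0.65 without Y_Sham 4) and Pcdh7 (0.54) as the 3 of 33 below 0.05 unadjusted (6.46% of all probes). Among the listed partners, regulators and other cadherins, the 1 gene called with age was Cdh23, the tip-link partner of Pcdh15, higher in aged sham animals in the hippocampus (1.17, adjusted p = 0.0135) and in the cortex (1.97, adjusted p = 0.0139). Pcdh15 had a hippocampal age difference of 0.35 on its brightest probe and of -0.69 and -0.24 on its other tested probes. The value of -0.69 rested on Y_Sham 4, at 0.84 where the other young sham animals were at -1.24 to -0.98.

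Cognitive status was compared as AI against AU sham animals, and 0 members passed in either region (0% of probes called in both, and 1 of 32 and 3 of 33 members unadjusted against 4.05% and 6.44% of all probes). In the hippocampus, Pcdh20 was at 4.77, 4.31, 4.73 and 4.48 in AI_Sham, below 5.11, 4.81, 4.93 and 4.95 in AU_Sham, with a difference of -0.38 (SE 0.157, adjusted p near 1). In the cortex, Pcdhb4 had a difference of 0.50 (SE 0.154, adjusted p = 0.601) from the values above, with AI_Sham 2 within the AU range. No AU_Sham cortex was above background for Pcdhga1 and Pcdhb2. With these cortices set no lower than the dimmest signal above background on their arrays, the genes were 1.28-fold and 1.63-fold higher in AI animals. The value of Pcdhb2 rested largely on AI_Sham 4 (-1.05, against -2.63 to -1.84), without which its fitted difference was 0.41 in place of 0.72.

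The members varied between animals of a group about as much as other probes. The median within-group SD was 0.286 for members and 0.262 for all probes in the hippocampus, and 0.398 and 0.345 in the cortex, and the members ranged from 0.135 to 0.945 and from 0.202 to 1.22. Deviations of the 24 animals from their group means were correlated within families as a description, the points sharing arrays and slides. The median pairwise r was 0.197 among Pcdhb, 0.329 among Pcdhg and -0.09 among solitary genes in the hippocampus, and 0.230, 0.114 and -0.06 in the cortex. The highest pairs were Pcdh17 with Pcdh19 (0.836), Pcdhb20 with Pcdhb8 (0.820) and Pcdhga7 with Pcdhgc5 (0.782) in the hippocampus, and Pcdhb10 with Pcdhb21 (0.812), Pcdh20 with Pcdh9 (0.812) and Pcdhga8 with Pcdhga9 (0.669) in the cortex.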

How the data were processed

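Dorsal hippocampus and parietal cortex of 24 rats were hybridized as single-colour samples to Agilent SurePrint G3 rat arrays, and the authors read the scans with Feature Extraction 12.0.3.1. The deposited processed signal is an intensity with the background subtracted and no normalization between arrays, given beside the median spot and background intensity and the flags of each spot. The authors also deposited a table of z-scores, a score for each feature, and none of its values was more than 0.005 away from a z-score of the log signal computed here. No file pairs probes with names, so accessions were matched to RefSeq symbols, which named 46.3% of probes.

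Here each array's log2 processed signal was z-scored over the non-control probes and put back on a log2 scale with the average SD over arrays (4.08). Flagged spots were left out, copies of a probe and technical repeats were averaged, and probes well above background in at least 3 animals (in either region for regional comparisons) were tested. limma 3.58.1 in R 4.3.3 was fitted to 6 group means per region, and to the differences between the regions of an animal, with Benjamini-Hochberg adjustment over all probes. The number of animals limits the precision. The N-fold values of dim genes set the group without a sample above background, per array, to the higher of its own signal and the array's lowest signal well above background. That signal need not be the detection limit of the gene's own probe, so these values are not strict lower bounds.

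The members, lists and named genes (per comparison, members called or with the 3 smallest p-values or an unadjusted p under 0.05) were chosen with earlier results of these data known. The normexp alternative used the median spot signal, as the mean signal was not used here. Alternatives were other scalings, the authors' table of scores, other filters, first arrays, slide blocks, the replicate block, scan dates, the mean over the probes of a gene, and leaving out each animal. The regional fit with slide as a block used single arrays with a term for each animal. Technical repeats were separate values in it, so animals with repeats, Y_Sham 3 above all, weighed more there. Deviations of same-numbered sham and iTBS animals correlated above 0 in every pair only among AI cortices (r of 0.370, 0.390 and 0.140). The highest single r was 0.395, for pair 1 of the AI hippocampi. The main fit did not pair animals by number, and the replicate block was run as an alternative. One array, titled young sham but described as an aged stimulated animal, has no group. Scripts were tested on simulated data.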

Additional observations from a re-analysis of the deposited data

Results flagged for a closer look

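In 14 of 250 sets of animals (25 members, 6 groups and both regions, sets of 3 not examined), 1 animal lay far from the rest of its group by Dixon's criterion at 95%, which chance gives in about 1 set of 20. None of these values was explained or removed.

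In the cortex, Pcdhb3 was at -3.45 in Y_Sham 4 against 0.43 to 1.08 in the other young sham animals, and the same animal had Pcdh18 at 3.15 against 2.46 to 2.53. Pcdh18 was at 1.50 in AU_iTBS 4 against 2.13 to 2.34. Pcdh9 was at 5.50 in AU_Sham 1 against 6.49 to 6.63, and Pcdh7 at 5.20 in AI_Sham 2 against 4.76 to 4.83. Pcdhga2 was at 1.49 in AU_iTBS 5 against -0.65 to -0.15 and at -0.98 in AU_Sham 4 against -0.62 to -0.59. Pcdhga3 was at -1.31 in AU_iTBS 2 against -2.59 to -2.23 and at -3.26 in AI_Sham 4 against -2.46 to -2.30.

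In the hippocampus, Pcdh7 was at 4.38 in AI_Sham 4 against 3.92 to 3.99. Pcdhb4 was at 0.92 in Y_iTBS 2 against 1.49 to 1.58 and at 2.37 in AU_Sham 1 against 1.65 to 1.72. AI_Sham 2 had Pcdhb12 at 1.00 against 1.13 to 1.16 and Pcdhga1 at -1.57 against -2.70 to -2.56. No member's iTBS effect differed between ages or regions past the adjusted threshold.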

How the results depend on the processing

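The number of members called between regions was 8 to 13 in sham and 8 to 11 in iTBS animals over all alternatives, and 9 to 13 and 8 to 11 when 1 animal was left out. Pcdh11x, Pcdh7, Pcdh19 and Pcdh20 were called under each of them in both sets of animals. With slide as a block 9 members were called in sham animals, 8 of them among the 12, and Pcdhb8, Pcdhb9, Pcdhb12 and Pcdhga3 were lost. With the animals of the later scan dates alone 8 were called, 6 of them among the 12, and Pcdh8, Pcdh9, Pcdhb9, Pcdhb12, Pcdhb21 and Pcdhga3 were lost. The cause was not tested. In sham animals, leaving out 1 animal ended the call of Pcdhb9 for 9 of the 12 animals (all but Y_Sham 1, AU_Sham 1 and AI_Sham 4), of Pcdhb21 for 6 (Y_Sham 1, 2 and 3, AU_Sham 3 and 4 and AI_Sham 2), of Pcdhb12 for 3 (AU_Sham 4 and AI_Sham 2 and 3) and of Pcdhga3 for 2 (Y_Sham 1 and 4). In iTBS animals, that of Pcdhb9 ended without AI_iTBS 1 and that of Pcdh17 with the first scan date alone (adjusted p = 0.164). Pcdhb6, called in iTBS animals alone, was not followed by name over the alternatives. It was no longer called where leaving out 1 animal gave 8 calls. The other 17 comparisons had 0 members called under each alternative, and the median of all probes was at most 0.0938 from 0 under any scaling. With the replicate block, which pairs animals by number, 0 members were called in all 14 group comparisons (in the AI cortex, iTBS against sham, Pcdhga1 was then at -1.17 and Pcdhb2 at -0.83), and without the pairing of regions within an animal 11 and 10 were called in sham and iTBS animals, Pcdhb12 being lost in sham animals (adjusted p = 0.0696, limma).

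The differences that turned their sign were not called under the alternative that turned it, and the cause was not tested. With animals of the later scan dates, where single animals of a group were taken to vary like the rest, iTBS in the AU hippocampus gave 0.27 for Pcdhga7 and 0.19 for Pcdhgc5, in the AI hippocampus 0.0986 for Pcdhga9 and 0.0577 for Pcdhb2, and in the AI cortex 0.0454 for Pcdhb2. The aged minus young effect of Pcdhb12 in the cortex was then 0.39 and the regional difference of Pcdhb21 in iTBS animals -0.32. With slide as a block on first arrays, Pcdhga7 and Pcdhgc5 in the AU hippocampus were at 0.026 and 0.0545 and Pcdhb10 in the AU cortex at -0.0526. Pcdh19 in the AU cortex was 0.0331 on the first scan date, Pcdh15 in the aged hippocampus -0.19 as the mean of its probes, and Pcdh11x in the regional contrast of young iTBS effects -0.0172 with normexp.

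With 3 to 5 animals a group, differences within the spread between animals were not detectable, and values of Pcdh11x in the hippocampus and of the dim Pcdhg and Pcdhb genes rest on signals near background.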

Other observations

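The array put in no group, labelled hippocampus in both its title and its description, had Pcdh11x at -1.96, Pcdh7 at 4.28, Pcdh19 at 6.71, Pcdh20 at 4.65, Pcdh17 at 5.73 and Pcdh9 at 6.07. Pcdhb8 was at -0.19, Pcdhb12 at 1.28 and Pcdhga7 at 8.54. Of its 35 members, Pcdh12, Pcdhga9, Pcdhga10, Pcdhga11 and Pcdhgb8 were not above background.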
